A study of Mus musculus with 6 samples.

Results

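The genes described here encode subunits of the proteasome, in 2 kinds. Psmb8, Psmb9 and Psmb10 are the immune catalytic subunits, and Psmb5, Psmb7, Psmc2 and Psmd7 belong to the constitutive proteasome or its regulatory cap. Members were taken by symbol and not by a rule on their values, but earlier results of these data were known when they were chosen. Of the 7 listed genes, 6 were found among the 561 gene rows of the panel, namely Psmb9 and Psmb10 of the immune kind and all 4 of the other kind. The expression of Psmb8 was not analysed here. All 6 passed the filter on low values.

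The RNA came from spleen cells (splenocytes) of NZB/WF1 females, hybrid mice prone to a disease like lupus. At 6 to 7 weeks of age mice were given an implant that held 17-beta estradiol (E2), an implant that held 17alpha-ethinyl estradiol (EE), or an empty one (placebo), and treatment lasted 9 weeks. EE is estradiol with an added ethynyl group. Each group held 2 samples, named by the numbers in their labels: E2 replicates 1 and 2, EE replicates 11 and 14, and placebo replicates 22 and 26. The labels do not tie samples to separate mice, and p-values therefore reflect only how far these samples spread, which may be technical. Implant doses are not known here, so E2 and EE cannot be said to be matched in dose.

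The proteasome is a barrel that degrades ubiquitin-tagged proteins, with catalytic subunits inside and a regulatory cap that recognises and unfolds the substrate. Interferon-gamma and some cell identities, among them lymphocytes, install immune catalytic subunits in place of the constitutive ones when new barrels are built. The resulting immunoproteasome yields peptides well suited to binding class I histocompatibility molecules. In mice Psmb8 and Psmb9 lie in the histocompatibility region beside the peptide transporter genes.

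Values are normalised counts. The nCounter instrument tallies single barcoded probes bound to RNA, with no amplification step, and the values show that these tallies were scaled on reference genes and rounded before deposit. Gene totals after that scaling ran from 646299 to 863942 per sample. Negative controls averaged 5.38 to 7.88, far below every member. A separate proteasome gene, Psmb11, which encodes a catalytic subunit known from thymus cortex, read between 1 and 7 in the 6 samples, at the level of the negative controls. It is no listed member and was picked out after its values were seen.

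The upstream stretches of the immune subunits are given first, with that of Psmb5 for contrast, because Psmb9 shares its stretch with a measured neighbour. Promoter windows of RefSeq (GRCm38.p6), from 250 bases before to 50 after a gene's start, were found for 5 of the 7 listed genes. The stretch for Psmb9 is the 225 bases between its start and that of Tap1, which is read the other way and encodes a chain of the peptide transporter. It lies at chr17:34187331-34187555. The stretch for Psmb10 is at chr8:105938393-105938642 and that for Psmb5 at chr14:54617996-54618245. All are read on the minus strand, 5′ to 3′, and capitals mark matches to the motifs named after them.
Psmb9: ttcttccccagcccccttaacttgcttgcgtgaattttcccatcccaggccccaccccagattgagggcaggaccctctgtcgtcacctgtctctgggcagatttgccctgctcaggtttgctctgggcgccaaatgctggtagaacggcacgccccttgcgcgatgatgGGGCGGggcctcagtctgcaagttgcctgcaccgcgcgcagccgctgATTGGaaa
Psmb10: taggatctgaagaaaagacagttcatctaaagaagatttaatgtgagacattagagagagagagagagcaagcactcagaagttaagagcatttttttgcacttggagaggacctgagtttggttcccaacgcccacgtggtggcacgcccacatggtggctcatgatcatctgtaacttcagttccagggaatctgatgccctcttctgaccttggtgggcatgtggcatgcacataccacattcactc
Psmb5: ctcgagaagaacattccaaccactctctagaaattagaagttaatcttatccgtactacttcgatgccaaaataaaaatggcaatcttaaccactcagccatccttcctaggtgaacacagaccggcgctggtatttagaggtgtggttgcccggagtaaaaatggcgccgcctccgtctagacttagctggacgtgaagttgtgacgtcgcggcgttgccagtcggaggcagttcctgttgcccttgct
Both strands were searched for 4 motifs. The core of the interferon-stimulated response element (GAAA, any 2 bases, GAAA) and TTCNNNGAA, the gamma-activated site, had 0 matches in the windows of Psmb5, Psmb9, Psmb10 and Psmc2. These strings occur in 3.4% and 8.3% of the 32851 mouse promoter windows of 300 bases. Psmb8 had 1 gamma-activated site match. The GC box GGGCGG and the CCAAT box, added after the sequences had been seen, each matched 1 time between Psmb9 and Tap1 and 0 times in the windows of Psmb10 and Psmb5 (35.7% and 37.4% of all windows). The CCAAT box also matched 1 time in 1 of the 2 windows of Psmc2. The motifs do not overlap in the stretch printed. A match is a string of letters, not a site in use.

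The immune subunits were lower under both estrogens than under placebo. Psmb9, the immune counterpart of the caspase-like subunit, read 1412 and 1156 in placebo replicates 22 and 26. It read 965 and 962 in E2 replicates 1 and 2, and 869 and 875 in EE replicates 11 and 14. Both placebo samples lay above all 4 estrogen samples, and the placebo samples differed more from each other than the samples of either estrogen. On the log2 scale of the normalised counts Psmb9 fell by 0.41 (SE 0.15, limma adjusted p = 0.036) in E2 and by 0.55 (SE 0.15, limma adjusted p = 0.00835) in EE.

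Psmb10, the immune counterpart of the trypsin-like subunit, read 449 and 385 in placebo, 305 and 247 in E2, and 263 and 310 in EE. Here too the placebo samples lay above all others, while E2 and EE overlapped. Psmb10 fell by 0.60 (SE 0.17, limma adjusted p = 0.0117) in E2 and by 0.54 (SE 0.17, limma adjusted p = 0.0162) in EE.

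The constitutive catalytic subunits read higher under estrogen on the deposited values, though not every difference was called. Psmb5, the chymotrypsin-like subunit that Psmb8 replaces in the immune barrel, read 673 and 582 in placebo, 773 and 801 in E2, and 794 and 810 in EE. Psmb7, the trypsin-like subunit that Psmb10 replaces, read 925 and 859 in placebo, 1123 and 1168 in E2, and 1138 and 1155 in EE. For both genes every estrogen sample lay above every placebo sample, and E2 and EE overlapped. Psmb7 rose by 0.36 in E2 (SE 0.14, limma adjusted p = 0.0398) and by 0.36 in EE (SE 0.14, limma adjusted p = 0.0357). Psmb5 rose by 0.36 in EE (SE 0.14, limma adjusted p = 0.045), and its difference of 0.33 in E2 (SE 0.14) missed the threshold with a limma adjusted p of 0.0646.

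The cap subunits showed larger increases in EE than the catalytic subunits Psmb5 and Psmb7 did, a difference that was not tested directly. In a fit relative to these subunits together, described below, none of them was called in EE. Psmc2, an ATPase of the ring that unfolds substrates, read 1093 and 1024 in placebo, 1326 and 1333 in E2, and 1444 and 1535 in EE. Psmd7, a scaffold subunit of the lid that holds the deubiquitinating enzyme, read 982 and 909 in placebo, 1159 and 1161 in E2, and 1349 and 1438 in EE. In both genes the 3 groups were fully apart, in the order placebo, E2, EE. How many tested genes keep all 3 groups apart was not counted. For pairs of groups, 18.2% of tested genes were higher in E2 than in placebo without overlap, and 17.9% higher in EE than in E2. Neither cap subunit was called in EE against E2 (limma adjusted p = 0.488 for Psmc2 and 0.295 for Psmd7). Psmc2 rose by 0.49 (SE 0.14, limma adjusted p = 0.00925) and Psmd7 by 0.56 (SE 0.14, limma adjusted p = 0.00503) in EE. In E2 their log2 differences of 0.33 and 0.30 (SE 0.14 each) missed the threshold, with limma adjusted p = 0.0564 and 0.0812.

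**Figure D1:**
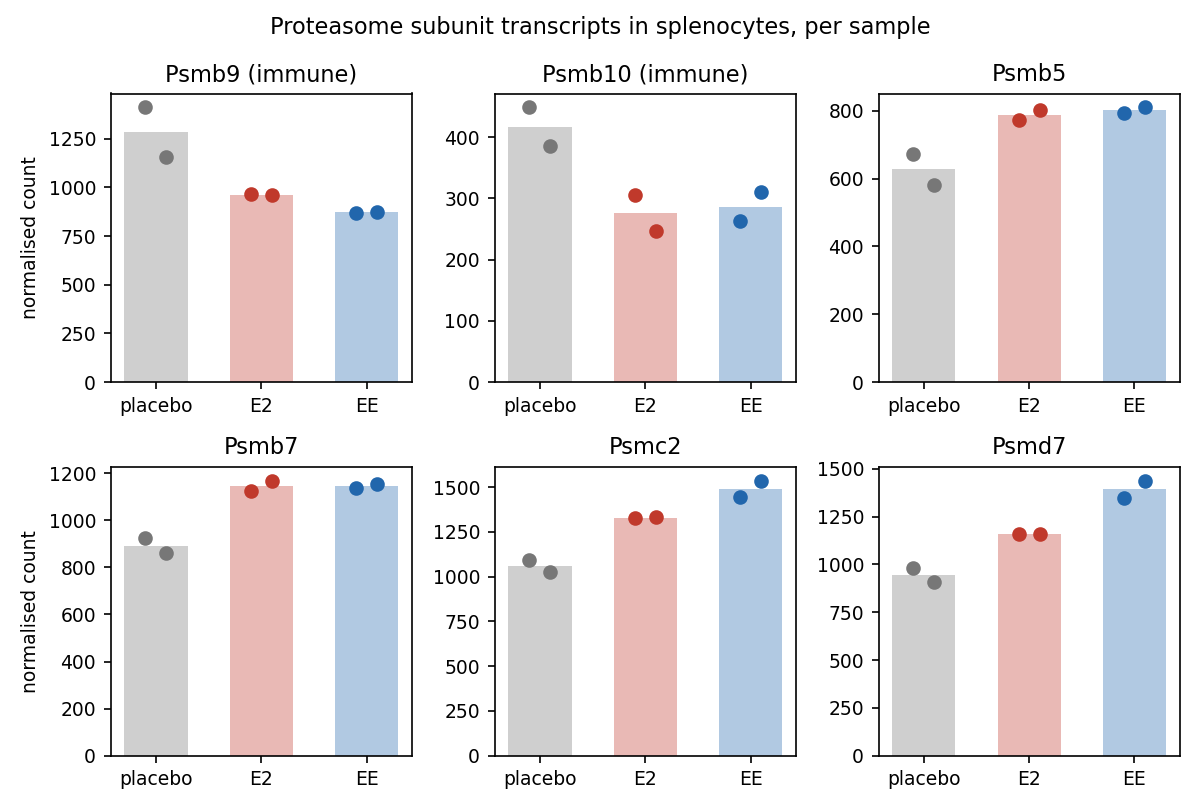
Normalised counts (vertical axis, from 0) of the 6 measured subunits in placebo, E2 and EE. Points are samples and bars are the means of 2 samples. Psmb9 and Psmb10 are highest in placebo (means 1284 and 417), whereas the other 4 are lowest there.

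These counts of calls have to be read against the panel. In E2 against placebo 59.5% of the 457 tested genes were called lower and 12.5% higher, with a median log2 change of -0.56. In EE against placebo the shares were 63.9% and 15.5%, with a median of -0.69. Both comparisons use the same placebo samples. Both measured immune subunits were called lower in each comparison, which is what most genes of the panel were, and 59.3% (Psmb9) and 47.3% (Psmb10) of tested genes had a lower value in E2. The 4 other subunits stood on the less common side, with 1 of 4 called higher in E2 and 4 of 4 in EE. Between 84.2% and 86.2% of tested genes had a lower value than theirs in E2, and between 83.4% and 87.3% in EE. Groups that did not overlap, with the estrogen higher, were seen for all 4 in each comparison, against 18.2% of tested genes in E2 and 18.8% in EE. With the estrogen lower they were seen for both immune subunits, against 67.6% and 70.0%.

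**Figure D2:**
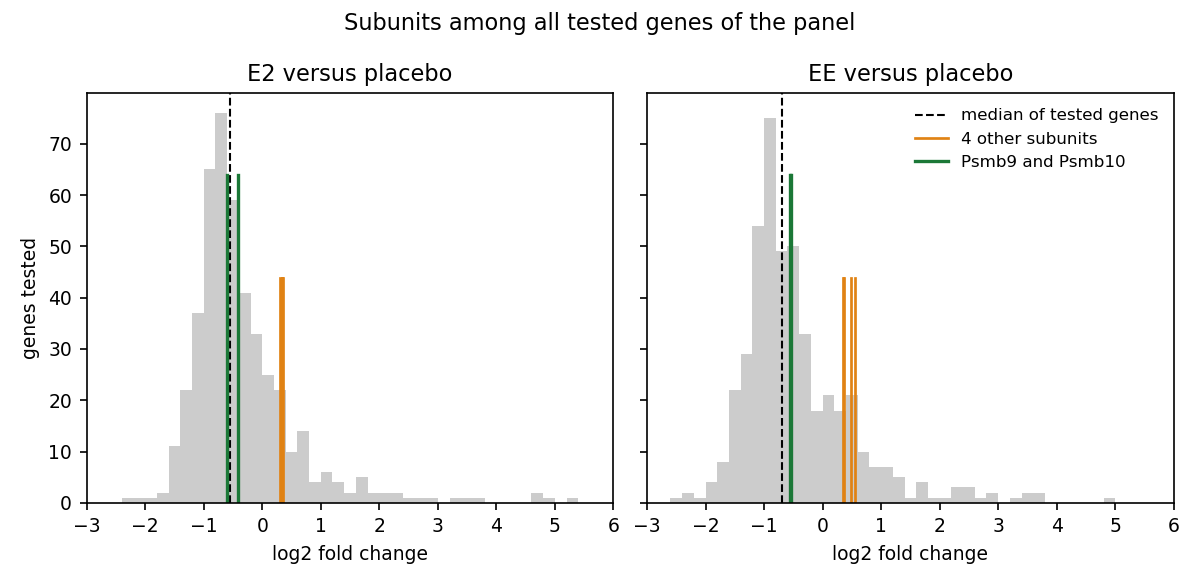
Histograms of the log2 fold change (horizontal axis) of the 457 tested genes, with the number of genes on the vertical axis, for E2 and EE against placebo. Green lines mark Psmb9 and Psmb10, orange lines the 4 other subunits and the dashed line the median gene (-0.56 and -0.69). The immune subunits lie near the dashed line and the others to its right.

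The direction of the immune subunits depends on what the samples are scaled on. Scaling by a trimmed mean over the panel (TMM) moved the median of all tested genes up by 0.57 in E2 and by 0.69 in EE. Psmb9 then stood at 0.16 and 0.14, and Psmb10 at -0.03 and 0.14, with limma adjusted p between 0.389 and 0.86. On that scale all 4 other subunits were called higher in each comparison, at 0.86 to 0.93 in E2 and 1.04 to 1.25 in EE. The panel as a whole split into 124 genes higher and 88 lower in E2, against 57 and 272 on the deposited values, and into 132 and 107 in EE, against 71 and 292. Scaled on positive controls, none of the 4 other subunits was called in EE (0.03 to 0.23, limma adjusted p from 0.318 to 0.905), while Psmb9 (-0.88) and Psmb10 (-0.87) were called lower. On the same scale none of the 4 was called in E2 either (0.20 to 0.27, limma adjusted p from 0.266 to 0.406). Psmb9 (-0.50) and Psmb10 (-0.69) were called lower there. Scaled on column totals, Psmb9 and Psmb10 lost their calls in EE (-0.20 and -0.19, limma adjusted p = 0.261 and 0.305), and so did Psmb9 in E2 (-0.31, 0.088), with a panel split of 98 higher and 216 lower in EE. What held under each of these scalings, by construction, was the distance between the 2 kinds of subunit.

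**Figure D3:**
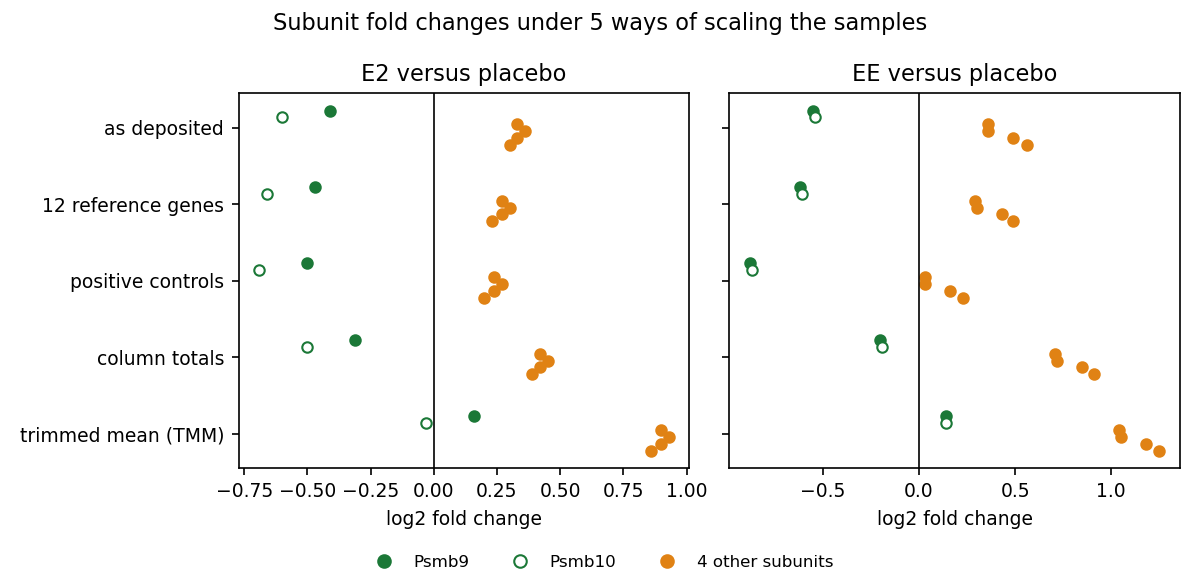
Log2 fold change (horizontal axis) of each subunit against placebo under 5 ways of scaling the samples (rows). Filled green points are Psmb9, open green points Psmb10 and orange points the 4 other subunits. Scaling shifts all points of a row together, and the green points stay to the left of the orange ones, crossing 0 with TMM for Psmb9 in E2 and for both in EE.

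A ratio between transcripts of the same sample does not change with scaling. Probes differ in efficiency, so only the movement of a ratio between samples is read, not its size. Psmb9 relative to the geometric mean of the 4 other subunits was 156.2% and 140% in placebo, 89.8% and 87.7% in E2, and 75.4% and 73% in EE. The 3 groups did not overlap, and the ratio was lowest in EE. The share of tested genes with such a pattern in this ratio was not counted. The difference between EE and E2 was not called (log2 -0.26, limma adjusted p = 0.309). Relative to these 4 subunits, the median log2 change of all tested genes in EE versus E2 was -0.23. Psmb10 relative to the same mean was 49.7% and 46.6% in placebo, 28.4% and 22.5% in E2, and 22.8% and 25.9% in EE. Placebo stood apart, and E2 and EE overlapped.

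In the fit with the 4 other subunits as the scale, Psmb9 fell by 0.74 (95% interval -1.11 to -0.36, limma adjusted p = 0.00143) in E2 and by 0.99 (-1.37 to -0.62, limma adjusted p = 0.000103) in EE. Psmb10 fell by 0.93 (-1.32 to -0.53, limma adjusted p = 0.000429) in E2 and by 0.98 (-1.38 to -0.58, limma adjusted p = 0.000207) in EE. These changes are larger than the spread between replicates. Relative to the same 4 genes, 72.0% of tested genes were called lower and 8.32% higher in E2, and 77.0% lower and 8.53% higher in EE. The medians of the tested genes were -0.88 and -1.14, near the values of the immune subunits. With any of the 6 samples left out, the 4 calls remained, with values from -1.09 to -0.66 and limma adjusted p up to 0.0122.

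Psmb10 and Psmb7 are the pair of interchangeable subunits for which both probes were found. Psmb10 was 48.5% and 44.8% of Psmb7 in placebo, 27.2% and 21.1% in E2, and 23.1% and 26.8% in EE. The log2 ratio was -1.10 ± 0.08 (SD, n = 2) in placebo, -2.06 ± 0.26 in E2 and -2.01 ± 0.15 in EE. Both estrogen groups lay below placebo and overlapped each other.

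Within each kind the ratios moved much less. Psmb7 relative to Psmb5 ran from 137.4% to 147.6% over the 6 samples, with the lowest and the highest value both in placebo. Psmb9 relative to Psmb10 ran from 282.3% to 389.5%, with the extremes in EE replicate 14 and E2 replicate 2. The EE samples overlapped both other groups, while both E2 samples (316.4% and 389.5%) lay above both placebo samples (314.5% and 300.3%), by a narrow margin at the nearest pair. The cap subunit Psmd7 relative to Psmb7 was 106.2% and 105.8% in placebo, 103.2% and 99.4% in E2, and 118.5% and 124.5% in EE. EE was above both other groups, a difference in ratio that was not tested. In the fit scaled on Psmb5, Psmb7, Psmc2 and Psmd7, none of these was called in EE against placebo. Their values ran from -0.09 (Psmb5) to 0.12 (Psmd7), with limma adjusted p from 0.533 to 0.795. Each is itself part of that scale. In the direct comparison of EE with E2, given below, neither cap subunit was called.

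**Figure D4:**
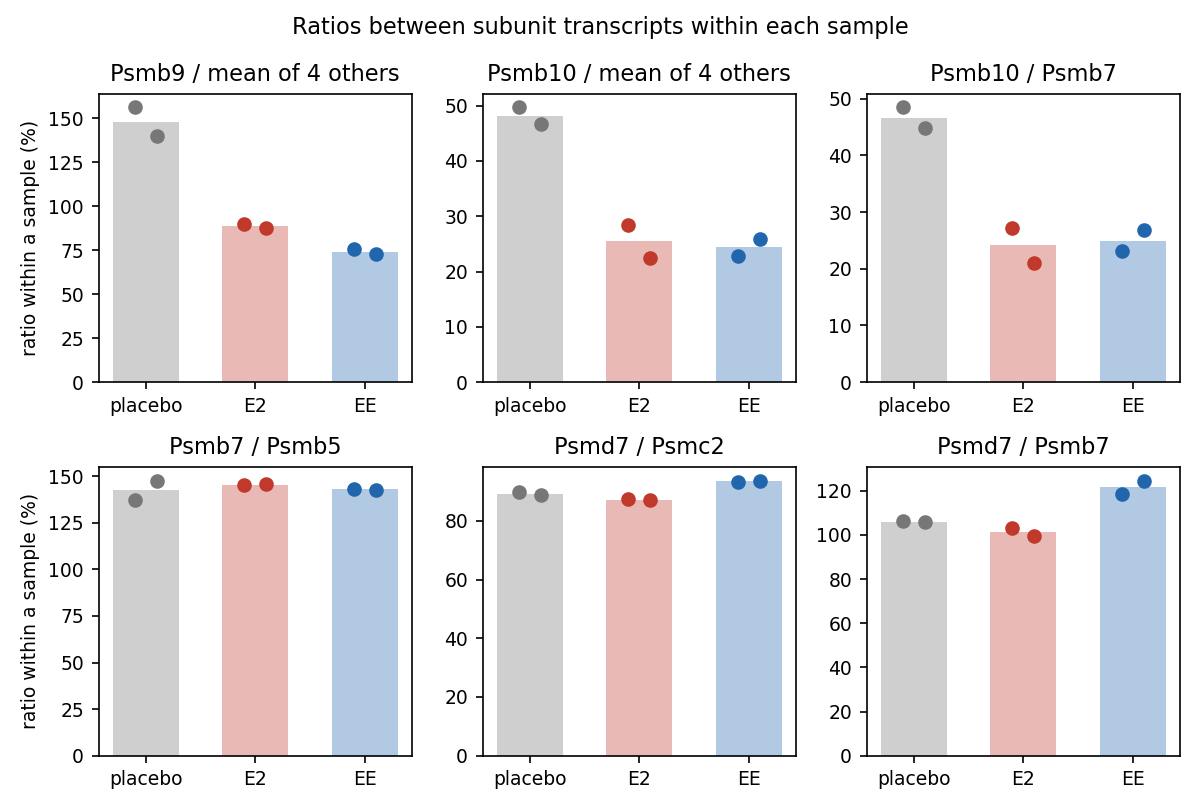
Ratios between subunit transcripts within a sample, in percent (vertical axes, from 0), for placebo, E2 and EE. Points are samples and bars are means of 2 samples. Both immune subunits are lower relative to the others under E2 and EE, the ratio of Psmb7 to Psmb5 is nearly level, and Psmd7 relative to Psmb7 is highest in EE.

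The direct comparison of EE with E2, which differ by the ethynyl group, found 0 of the 6 subunits changed by limma, and 0 at an unadjusted p under 0.05. Of the 457 tested genes, 105 had an unadjusted limma p under 0.05. Among all tested genes 2.19% were called higher and 4.6% lower in EE. The nearest to a difference was Psmd7, at 0.26 (95% interval -0.05 to 0.58, limma adjusted p = 0.295), with both EE samples above both E2 samples. Psmc2 differed by 0.16 (-0.15 to 0.48) and Psmb9 by -0.14 (-0.49 to 0.20), again with groups that did not overlap, a pattern seen in 17.9% of tested genes for EE higher and in 40.7% for EE lower. Intervals for the remaining 3 were -0.30 to 0.35 for Psmb5, -0.31 to 0.31 for Psmb7 and -0.33 to 0.44 for Psmb10. Scaled on column totals, Psmd7 was called higher in EE (0.52, limma adjusted p = 0.0374), and the panel split into 53 genes higher and 8 lower in place of 10 and 21. On positive controls the split was 8 and 90, and with TMM 9 and 1. The number of calls over the panel in this comparison changed with the scaling, the filter and the samples kept, and the cause was not tested. It was 31 on the deposited values. With no filter and all samples kept it was 0, where 92 genes had an unadjusted limma p under 0.05. Relative to the other subunits, Psmb9 differed by -0.26 (-0.63 to 0.11, limma adjusted p = 0.309) and Psmb10 by -0.06 (-0.46 to 0.34, limma adjusted p = 0.829), where 8.97% of tested genes were called lower and 2.41% higher.

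Several calls on the deposited values were lost when a sample was left out. Some were lost without a sample outside the comparison. That leaves the log2 change as it was and alters only the shared estimate of the spread. In E2 the call of Psmb9 was lost without any sample but placebo replicate 26 (limma adjusted p from 0.0695 to 0.145), and that of Psmb7 without any but placebo replicate 22 (0.065 to 0.114). The call of Psmb10 was lost without E2 replicate 2 (0.0897) or placebo replicate 22 (0.0616). Without placebo replicate 22 Psmb9 stood at -0.26, against -0.41 with it, and Psmb5 passed the threshold in E2 (0.0344). In EE, Psmb9 kept its call without each sample. The call of Psmb10 was lost without EE replicate 11 (0.125) or placebo replicate 22 (0.082), that of Psmd7 without EE replicate 14 (0.06), and that of Psmc2 without EE replicate 11 (0.0508) or 14 (0.1). Psmb5 lost its call without any sample but placebo replicate 22 (0.0513 to 0.209), and Psmb7 without EE replicate 11, EE replicate 14 or placebo replicate 26 (0.0942 to 0.197). No subunit changed sign against placebo when a sample was left out.

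Genes of the class I pathway carry and present the peptides the proteasome makes. Of 16 listed, 4 were measured, and 3 fell in each comparison, with a median of -0.70 in E2 and -0.81 in EE. Over all tested genes 59.5% and 63.9% were called lower, with medians of -0.56 and -0.69, so a count of 3 in 4 is near the background. Tap1, the transporter chain whose start faces that of Psmb9, read 1633 and 1802 in placebo, 1034 and 895 in E2, and 864 and 809 in EE. It fell by 0.83 in E2 (SE 0.15, limma adjusted p = 0.00125) and by 1.04 in EE (SE 0.15, limma adjusted p = 0.00031).

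Tap1 and Psmb9 did not keep a fixed ratio. Psmb9 was 86.5% and 64.2% of Tap1 in placebo, 93.3% and 107.5% in E2, and 100.6% and 108.2% in EE. All 4 estrogen samples lay above both placebo samples, but the placebo samples differed widely, and this difference was not tested. The class I heavy chain gene H2-K1 fell by 0.77 in E2 and 0.87 in EE, and Tapbp, the chaperone that bridges the transporter and the heavy chain, fell by 0.62 and 0.74. B2m, the light chain, differed by -0.23 and -0.34, with limma adjusted p = 0.213 and 0.0704.

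Interferon signalling genes upstream of the immune subunits were lower in 12 of 16 cases in E2 and 13 of 16 in EE, with none higher, and medians of -0.68 and -0.76. Irf1, a transcription factor that activates immune subunit genes, read 1743 and 1618 in placebo, 957 and 866 in E2, and 749 and 844 in EE. It fell by 0.88 in E2 and by 1.08 in EE (SE 0.15 each, limma adjusted p = 0.00086 and 0.000245). The kinase gene Jak1 fell by 0.92 and 1.03, Stat2 by 0.91 and 0.96, and the receptor gene Ifnar1 by 0.90 and 1.02. These shares, too, stand beside a panel in which 59.5% and 63.9% of genes were called lower.

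Among 8 measured interferon-stimulated genes, 5 fell in each comparison, and 2 rose in EE (median -0.49 in each). That count is near the panel's 59.5% and 63.9% called lower, and the median is closer to 0 than the panel's -0.56 and -0.69. Cxcl9, a chemokine induced by interferon-gamma, fell by 1.04 in E2 and by 0.80 in EE. Bst2, which tethers virus particles, fell by 0.73 and 0.81, and the RNA sensor Ddx58 by 0.64 and 0.94. The 2 that rose in EE, named after their values were seen, were the chemokine gene Cxcl10 (0.56, limma adjusted p = 0.0114) and the RNA sensor Ifih1 (0.35, limma adjusted p = 0.0444). Cxcl10 had 32 and 42 counts in placebo and 53 and 56 in EE.

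Genes of TNF and NF-kB signalling, another inducer of immune subunits, fell in 7 of 9 cases in E2 and in 9 of 9 in EE, with medians of -0.72 and -0.74, beside 59.5% and 63.9% of all tested genes called lower and panel medians of -0.56 and -0.69. The NF-kB subunit genes Nfkb2 and Nfkb1 fell by 0.92 and 0.83 in E2 and by 0.74 and 1.02 in EE. Of 5 measured genes of ubiquitin conjugation, the step before the proteasome, 4 fell in each comparison, beside the same panel shares. Their medians of -0.47 and -0.55 were closer to 0 than those of the panel. Among them the ubiquitin-editing enzyme gene Tnfaip3 fell by 0.69 and 0.79. The conjugating enzyme gene Ube2l3 was the exception, at -0.04 and 0.16 (limma adjusted p = 0.806 and 0.313), and it was named after its values were seen.

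Likeness to the subunits was measured as the SD over the 6 samples of the log2 ratio of a gene to a profile, which scaling does not change. For the mean profile of Psmb9 and Psmb10 the closest of 451 genes were Traf2 (0.059), Cxcr4 (0.07), Itga4 (0.092) and Nfkbia (0.095), where the median gene had an SD of 0.31. Traf2 encodes an adaptor of TNF receptors, Cxcr4 a chemokine receptor, Itga4 an integrin chain and Nfkbia an inhibitor of NF-kB. For the profile of the 4 other subunits the closest were App (0.06), Hprt (0.077), Ifih1 (0.083) and Phlpp2 (0.088), against a median of 0.614. Hprt, a purine salvage enzyme, is among the reference genes, and App encodes the amyloid precursor protein. The closest genes to Psmb9 alone were Cxcr4, Itga4, Itgb2 and Ifngr1, and those to Psmb10 alone were Traf2, Cd83, Nfkbia and Tnfsf10. Profiles of 6 samples in 3 groups are short, so such closeness is a description.

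The reference genes themselves were not uniform. Of 12 named, 2 were higher and 1 lower in E2, and 3 higher and 2 lower in EE, with medians of 0.02 and -0.04. Oaz1, an inhibitor of polyamine synthesis, rose by 0.63 in EE (limma adjusted p = 0.00243), against 0.56 for Psmd7, and Hprt rose by 0.55 (limma adjusted p = 0.00844). When the samples were scaled on these 12 genes alone, the 4 other subunits stood at 0.23 to 0.30 in E2 (limma adjusted p from 0.0883 to 0.176), and at 0.29 to 0.49 in EE with 2 of 4 called. Psmb9 (-0.47 and -0.62) and Psmb10 (-0.66 and -0.61) were called lower in each.

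The make-up of the samples moved with the groups. In bulk samples fewer cells of a type and less RNA per cell cannot be told apart. Summed over 10 neutrophil markers, counts were 9527 to 13182 in placebo, 187760 to 213243 in E2 and 84867 to 96924 in EE, with 9 of 10 higher in E2, and 7 higher and 1 lower in EE. Summed over 7 measured erythroid, megakaryocyte and platelet genes, they were 2497 to 3228 in placebo, 16006 to 16229 in E2 and 20402 to 21297 in EE. The cap subunits Psmc2 and Psmd7 shared the order of this second list (placebo, E2, EE). The monocyte and macrophage sums given below had the same order. Psmb5 and Psmb7 did not separate E2 from EE.

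Lymphocyte markers went the other way. All 11 measured B cell markers were lower in each comparison (sums of 150977 to 169616 in placebo, 83343 to 96626 in E2 and 82782 to 84593 in EE). So were 16 of 17 genes on the T cell list (29790 to 34808, 12730 to 15420 and 10370 to 11660). The exception, Cd3eap, differed by 0.10 in E2 and by 0.001 in EE and was named after its values were seen. The medians were -0.80 and -0.95 for B cell markers and -1.13 and -1.47 for the T cell list with Cd3eap included, all further from 0 than Psmb9 and Psmb10. All 11 measured natural killer and cytotoxic markers were lower as well (4154 to 4354, 1130 to 1637 and 1174 to 1346). Monocyte and macrophage markers summed to 8196 to 9377 in placebo, 9528 to 9546 in E2 and 13758 to 15336 in EE, with 2 higher and 2 lower of 10 in E2 and 7 higher and 2 lower in EE. Plasma cell markers summed to 3990 to 4222 in placebo, 3472 to 4579 in E2 and 4386 to 4449 in EE, so E2 overlapped both other groups and EE lay above placebo. Of the 4 measured, 1 was higher and 1 lower in E2, and 2 were higher and 1 lower in EE. No marker was at 0 in any sample (0 of 71). The part of cell make-up in the values of the subunits was not tested.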

How the data were processed

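Splenocyte RNA of 6 samples was counted with a NanoString nCounter mouse immunology panel. The deposited table had 561 gene rows and 14 rows of spiked-in controls, 575 in all. Values were whole numbers per probe, and how they were normalised is not given in the sources used here. By the labels' tally the panel has 14 internal reference genes. Of these, 12 could be named through the RefSeq gene table (GRCm38.p6) by unversioned transcript identifier, which named 549 gene rows. Adding each of the 66 pairs of the 12 unnamed rows to those 12 genes showed 1 pair that made the geometric mean level in all samples (1415.5 to 1416.4, a spread of 0.06%, against 1.757% for the next pair). The deposited values were therefore treated as a score, that is, counts the authors had already scaled on reference genes and rounded, although no header or label records that step. Columns of values that matched no sample numbered 0.

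A count test had been planned for raw counts, with limma for normalised values, so limma 3.58.1 (R 4.3.3) was used on log2(value + 1), with no further scaling. Genes with a mean of at least 20 were tested (457, with 104 left out) in a model of group means over the 6 samples. Two-sided p-values were corrected over all 457 genes (Benjamini-Hochberg, threshold 0.05). Standard errors (SE) and 95% intervals came from the moderated variance. A second fit over the same genes took the geometric mean of Psmb5, Psmb7, Psmc2 and Psmd7 in each sample as the scale. Alternatives covered other scalings, filters, pseudocounts, a variance trend and each sample left out in turn. The limma steps were tested on simulated data. The members and lists were chosen with earlier results of these data known. Named genes were all members, the 4 genes closest to each profile, and up to 4 genes of lowest p per pathway list. Replicate numbers are not shared between groups. No headers or labels give cartridge, lane or implant dose. The number of samples limits the precision, and depth before scaling is unknown.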

Additional observations from a re-analysis of the deposited data

How the results depend on the processing

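Each result was recomputed under other scalings, filters, pseudocounts and variance models and with each sample left out. Pseudocount 10, the variance trend and the scale of Psmb7 alone were chosen after the data had been seen. Relative to the other subunits, Psmb9 and Psmb10 kept their direction and their call against placebo under all 12 alternatives, from -1.09 to -0.66, with limma adjusted p up to 0.0122. The scalings applied to the deposited values were not among these 12, since they leave a ratio within a sample as it is. Leaving out a sample of the group not compared also left the log2 change as it was. On the deposited scale Psmb9 turned to 0.16 in E2 and 0.14 in EE, and Psmb10 to 0.15 and 0.14 in EE, when samples were scaled on the median gene or by TMM, which shift every gene alike. Those scalings gave 212 and 212 called genes in E2 against placebo, in place of 329, and 232 and 239 in EE, in place of 363. Leaving out a sample gave 255 to 323 and 317 to 357. For EE against E2 the count of 31 became 13 (median gene), 61 (column totals), 98 (positive controls), 10 (TMM), 74 (variance trend) and 0 (no filter, where 92 genes had an unadjusted limma p under 0.05), and 0 to 45 with a sample left out. The cause of these moves was not tested. No paired analysis was possible because the groups share no replicate numbers. The count-model tests planned for raw counts were not run, since the values are already normalised. With 2 samples a group, without known depth before scaling, cartridge or dose, small differences between E2 and EE were not detectable.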
